A study of Caenorhabditis elegans with 7 samples.

Results

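The 6 protein-coding genes of Caenorhabditis elegans described here carry only a sequence name in the WBcel235 annotation used: Y41C4A.32, C45B2.2, C48B4.12, F43C11.2, T13F3.6 and BE0003N10.6. Their reads were followed through 7 libraries. They are 6 of 27909 genes with an entry in the deposited counts, and they were chosen by their read level, because it did not overlap between the strains. The reads of these 6 genes are therefore given as a description, with no test. BN1190 (3 libraries) carries FLP recombinase under the dpy-7 promoter, which is active in the hypodermis, and BN1158 (4 libraries) carries no FLP. Both strains were grown for 28 h at 20 °C to the third larval stage on 3 plates per replicate, then kept with 4-thiouracil for 17 h in all and collected as whole L4 larvae. Each tube held a pool of larvae, the labels give no other allele of either strain, and they do not say whether replicates were separate cultures, so p-values measure only the spread between these libraries, which may be technical.

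SLAM-ITseq marks the RNA of chosen cells. A uracil phosphoribosyltransferase, switched on by a recombinase in those cells, lets them build 4-thiouracil into new transcripts, and alkylation then makes reverse transcriptase read the marked uracils as cytosines. Reads with at least 1 T>C mismatch are called labelled below. The hypodermis is the epithelium of the worm, which secretes the cuticle at every moult. Sequence names such as C45B2.2 combine a genomic clone with a number given to a gene on it and say nothing of function. The annotation gives none of the 6 genes a role, so none is given here.

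Reads came from the 3′ ends of polyadenylated RNA and were counted by the authors in 3′ UTR entries. Gene reads numbered 18985664 to 61942117 in BN1190 libraries and 5041283 to 51990915 in BN1158 libraries. Levels are in RPM, the reads of a gene per 1000000 reads of all genes. Of the 12465 genes with a mean of at least 20 reads, 374 (3%) were higher in each BN1190 library than in any BN1158 library and 225 (1.81%) were lower. Of these 599 genes, 263 have only a sequence name in the annotation used, as do 5010 of all 12465, though some may be named elsewhere. The 4 higher and the 2 lower genes described here are among them by choice. All 6 passed that minimum, C48B4.12 through its BN1190 reads alone. F43C11.2 passed it almost wholly through BN1190 (315 reads, against 10 in BN1158). BE0003N10.6 passed it almost wholly through BN1158 (857 reads, against 33 in BN1190). All 6 stayed without overlap when RPM was set to the TMM library size or to the mapped reads. This rests on the same counts as the choice of the genes and is no separate support. The nearest pair of libraries stood closest in C45B2.2, by 1.61 times. Just outside the choice, C01B10.6 had 92.81 RPM in its lowest BN1190 library and 92.83 RPM in its highest BN1158 library, and T28C6.7 had 65.4 RPM in its highest BN1190 library and 65.2 RPM in its lowest BN1158 library. In whole animals, fewer cells of a type and less RNA per cell cannot be told apart.

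**Figure D1:**
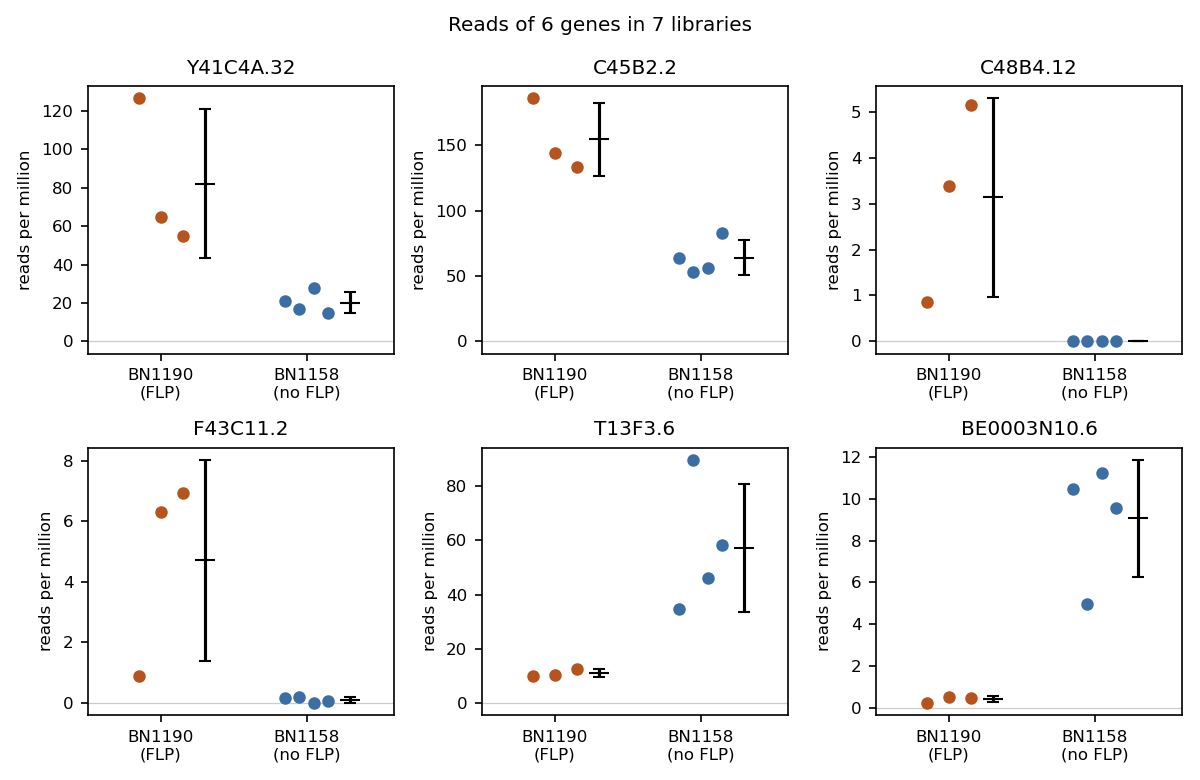
RPM (y axis, linear, its own range in each panel) of the 6 genes, with 1 point per library in replicate order and a bar for the mean and SD of 3 BN1190 and 4 BN1158 libraries. Y41C4A.32, C45B2.2, C48B4.12 and F43C11.2 were higher in every BN1190 library, and T13F3.6 and BE0003N10.6 were lower in every one.

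Y41C4A.32 lies on the plus strand of chromosome III, 11721706 to 11723607 in WBcel235, with 4 exons and 291 codons. Its reads were counted in 89 bases of 3′ UTR, 11723514 to 11723602. Y41C4A.32 had 127, 64.8 and 55.0 RPM in BN1190 libraries, against 20.8, 17.1, 27.8 and 15.0 RPM in BN1158 libraries. The first BN1190 library was the highest, and the lowest BN1190 library was 1.98 times the highest BN1158 library. The means were 82.2 ± 38.9 RPM in BN1190 (SD, n = 3) and 20.1 ± 5.60 RPM in BN1158 (SD, n = 4), 4.08-fold higher in BN1190.

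C45B2.2 lies on the plus strand of chromosome X, 6084739 to 6085189, and has 2 exons and 99 codons. Its entry is the last 88 bases of the gene, 6085102 to 6085189. C45B2.2 had 186, 144 and 133 RPM in BN1190 libraries, against 63.7, 52.8, 56.1 and 82.6 RPM in BN1158 libraries. The first BN1190 library was the highest, and the fourth BN1158 library was the highest of its strain. The means were 154 ± 27.8 RPM in BN1190 (SD, n = 3) and 63.8 ± 13.4 RPM in BN1158 (SD, n = 4), 2.42-fold higher in BN1190.

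C48B4.12 lies on the plus strand of chromosome III, 9597344 to 9598316, and has 2 exons and 193 codons in its longest transcript. Its entry of 83 bases, 9598279 to 9598361, runs past the annotated end of the gene. C48B4.12 had 53, 69 and 98 reads in BN1190 libraries, which is 0.856, 3.40 and 5.16 RPM, against 0 reads in each of the 4 BN1158 libraries. A count of 0 allows levels up to 0.0577, 0.595, 0.351 and 0.150 RPM in these BN1158 libraries (3 reads, counting error only), each under the lowest BN1190 level. Pooled over libraries, C48B4.12 was at least 62.0-fold higher in BN1190, taking 3 reads over the whole BN1158 group as the floor. The bound was 24.4-fold without the first BN1158 library and 121-fold without the first BN1190 library, the deepest of each strain. Only 3 of the 12465 genes (0.0241%) had no read in BN1158 and reads in every BN1190 library, and 0 genes showed the reverse.

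F43C11.2 lies on the plus strand of chromosome II, 2354776 to 2356009, with 5 exons and 177 codons, and its reads were counted in an entry of 21 bases, 2355952 to 2355972. F43C11.2 had 55, 128 and 132 reads in BN1190 libraries, against 8, 1, 0 and 1 reads in BN1158 libraries. In RPM this is 0.888, 6.30 and 6.95 in BN1190, against 0.154, 0.198, 0 and 0.0498 in BN1158. As in C48B4.12, the first BN1190 library was the lowest of its strain although it was the most deeply sequenced. The mean log2 difference, BN1190 minus BN1158, was 2.12 in F43C11.2 and 1.88 in C48B4.12 on the log2(RPM + 1) scale, which understates the change of such low genes.

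T13F3.6 lies on the minus strand of chromosome V, 16270300 to 16271221, with 4 exons and 168 codons. Its most-read entry covers 118 bases, 16270216 to 16270333. T13F3.6 had 10.1, 10.2 and 12.6 RPM in BN1190 libraries, against 34.7, 89.9, 46.3 and 58.2 RPM in BN1158 libraries. The BN1190 libraries were nearly level with each other, while the BN1158 libraries spread widely. The means were 10.96 ± 1.46 RPM in BN1190 (SD, n = 3) and 57.2 ± 23.8 RPM in BN1158 (SD, n = 4), 5.22-fold lower in BN1190. The entry lies opposite T13F3.8, a plus-strand gene at 16269800 to 16272575 that was not analysed here. The sources used here do not say whether counting used the strand. Of 22 pairs of entries on opposite strands that overlapped by at least 80% and held 200 or more reads, 0 had equal counts. The entries of such a pair can differ in extent and so in counts either way, so this cannot decide whether the strand was used.

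BE0003N10.6 lies on the minus strand of chromosome III, 1056230 to 1060061, with 5 annotated transcripts and 360 codons in the longest. Its reads come from an entry of only 8 bases, 1056263 to 1056270, so its level rests on this short stretch. BE0003N10.6 had 14, 10 and 9 reads in BN1190 libraries, against 544, 25, 96 and 192 reads in BN1158 libraries. In RPM this is 0.226, 0.492 and 0.474 in BN1190, against 10.5, 4.96, 11.24 and 9.57 in BN1158. The means were 0.397 ± 0.149 RPM in BN1190 (SD, n = 3) and 9.06 ± 2.82 RPM in BN1158 (SD, n = 4), 22.8-fold lower in BN1190. On the log2(RPM + 1) scale its difference of -2.80 ranked first in size among the non-overlapping genes with only a sequence name in the annotation used.

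A header prefix in the form of a flow cell name marks replicates 2 and 3 of BN1190 and 2 to 4 of BN1158. Replicate 1 of both strains lacks it. The marked libraries are called libraries with a flow cell, a reading of the prefix alone. Among the libraries with a flow cell, the log2 difference, BN1190 minus BN1158, was 1.58 in Y41C4A.32, 1.14 in C45B2.2, 2.38 in C48B4.12 and 2.82 in F43C11.2. Between the pair of first replicates it was 2.55 in Y41C4A.32, 1.53 in C45B2.2, 0.89 in C48B4.12 and 0.71 in F43C11.2. The genes lower in BN1190 gave -2.36 and -1.69 in T13F3.6 and -2.63 and -3.22 in BE0003N10.6, for the libraries with a flow cell and for the first replicates. The direction in any such subset is fixed by the choice of the genes. The difference of the scarcest, C48B4.12 and F43C11.2, was smaller between the first replicates than among the libraries with a flow cell. The median of this difference over all tested genes was 0.12, and with TMM library sizes the median log2 fold was -0.01.

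The labelled share, the percentage of the reads of a gene that are labelled, was not used to choose the genes and was tested. In all gene reads it was 3.56 ± 0.206% in BN1190 (SD, n = 3) and 3.16 ± 0.952% in BN1158 (SD, n = 4), so the control without FLP also has T>C reads. Of 9822 genes tested with edgeR, 0 passed an adjusted p of 0.05 in either direction (0%), with 281 higher and 40 lower at an unadjusted p under 0.05. Of the 6 genes, 4 had enough labelled reads for this test, and none of them passed.

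Y41C4A.32 had 227 labelled of 7848 reads (2.89%), 75 of 1316 (5.70%) and 42 of 1045 (4.02%) in BN1190 libraries. In BN1158 libraries Y41C4A.32 had 13 of 1080 (1.20%), 8 of 86 (9.30%), 0 of 237 and 2 of 301 (0.664%). The strains overlapped through the second BN1158 library alone, whose 95% Wilson interval runs from 4.79 to 17.3%. The means were 4.20 ± 1.41% in BN1190 (SD, n = 3) and 2.79 ± 4.37% in BN1158 (SD, n = 4). The log2 odds ratio, BN1190 over BN1158, was 1.63 (SE 1.19, edgeR adjusted p = 1.0), against a median of 0.54 over all genes tested. Without that library it was 2.67 and without the third BN1158 library 0.99, and with every library left out in turn it stayed above 0 and did not pass. Only 176 converted Ts were counted inside the entry, against 367 labelled reads.

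C45B2.2 had 517 labelled of 11519 reads (4.49%), 42 of 2929 (1.43%) and 61 of 2530 (2.41%) in BN1190 libraries. In BN1158 libraries C45B2.2 had 119 of 3313 (3.59%), 3 of 266 (1.13%), 15 of 479 (3.13%) and 20 of 1658 (1.21%). The strains overlapped through most of their range, with means of 2.78 ± 1.56% in BN1190 (SD, n = 3) and 2.26 ± 1.28% in BN1158 (SD, n = 4). The log2 odds ratio was 0.27 (SE 0.82, edgeR adjusted p = 1.0), and it turned to -0.17 without the first BN1190 library and to -0.03 without the fourth BN1158 library. C45B2.2 thus had the most labelled reads of the 6 genes, 777 in all, and a labelled share that could not be told apart between the strains at this spread.

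T13F3.6 had 8 of 623 (1.28%), 0 of 207 and 1 of 240 (0.417%) reads labelled in BN1190 libraries. In BN1158 libraries T13F3.6 had 2 of 1804 (0.111%), 3 of 453 (0.662%), 0 of 395 and 14 of 1167 (1.20%). The mean shares were 0.567 ± 0.655% in BN1190 (SD, n = 3) and 0.493 ± 0.553% in BN1158 (SD, n = 4), in both strains under the share of all gene reads. The log2 odds ratio was 0.66 (SE 1.69, edgeR adjusted p = 1.0) and turned to -0.54 without the first BN1190 library. Its level thus differed 5.22-fold between the strains at labelled shares whose ranges overlapped almost completely.

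BE0003N10.6 had 0 labelled of 33 reads in BN1190 and 13 of 857 reads in BN1158, and its log2 odds ratio was -0.29 (SE 0.40, edgeR adjusted p = 1.0). That SE was derived from the ratio and its test statistic, so with 0 labelled reads in BN1190 it does not measure precision. BE0003N10.6 met the minimum of labelled reads through BN1158 alone, the strain in which its level was higher by choice. The log2 odds ratio turned to 1.98 on converted Ts, to 1.22 with limma and to 0.46 without the second BN1158 library. Without the fourth, which held 9 of the labelled reads, too few were left to test, so the ratio has no stable direction. With 9 to 14 reads in a BN1190 library, a count of 0 allows a share of 21.4 to 33.3% there, so a difference was not detectable at this depth. C48B4.12 had 0 labelled of 220 reads in BN1190, which allows 3.06 to 5.66% per library, and no reads in BN1158. F43C11.2 had 1 labelled of 315 reads in BN1190 and 0 of 10 reads in BN1158. The authors' deposited table of 198 genes, 0.709% of all genes with an entry, held 0 of these 6 genes, a count from which nothing can be read at that share.

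**Figure D2:**
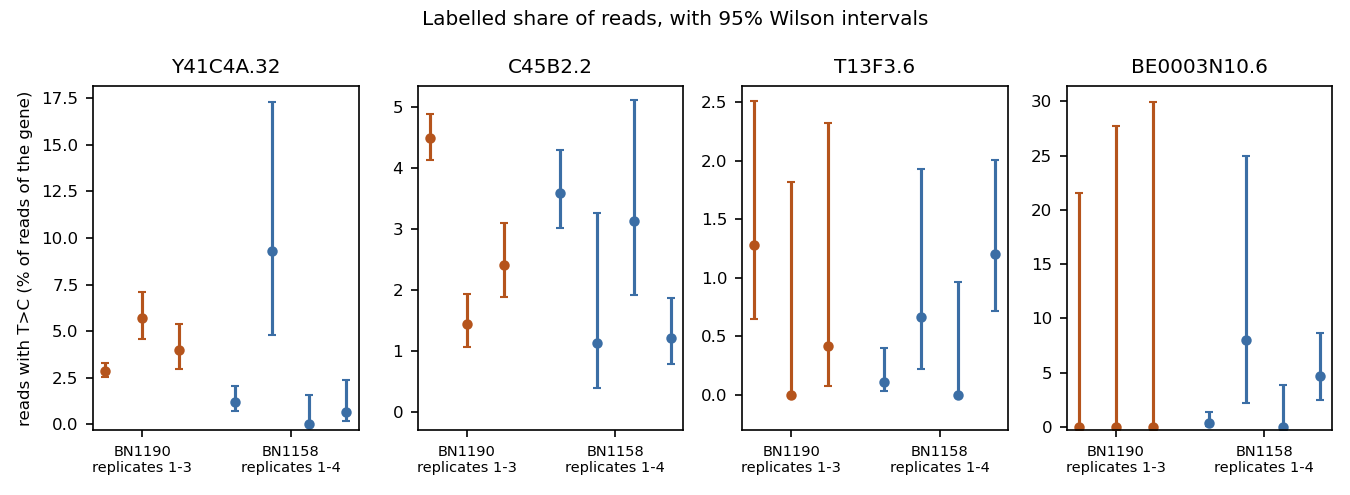
Labelled share (y axis, % of the reads of the gene, its own range in each panel) of the 4 genes tested, with 1 point per library (BN1190 replicates 1 to 3 on the left, BN1158 replicates 1 to 4 on the right) and its 95% Wilson interval, which covers counting error only. In Y41C4A.32 the second BN1158 library, at 9.30%, is above the 3 BN1190 libraries, and the other 3 BN1158 libraries are below them.

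Whether the genes beside the 6 also differed was asked of the 5 nearest counted genes on each side, 60 in all. Of the 44 neighbours with enough reads, edgeR called 0 at an adjusted p of 0.05, against 0.016% of all genes tested, DESeq2 called 0, against 0.193% of all genes, and 2 were lower at an unadjusted p under 0.05, as were 193 of all genes tested (1.55%). Their median log2 fold, BN1190 over BN1158, was 0.08, against -0.01 for all genes, and 25 of 44 were above 0. The RPM of 2 of the 44 (4.55%) did not overlap between the strains, against 4.81% of all tested genes. These were C45B2.1 and kbp-4, a kinetochore protein gene near BE0003N10.6. The level of kbp-4 was 19.9 ± 3.56 RPM in BN1190 (SD, n = 3) and 32.5 ± 8.87 RPM in BN1158 (SD, n = 4). Among the neighbours with too few reads for a test, 3 more did not overlap. They were Y41C4A.11 and clec-161, higher in BN1190, and fbxa-2, lower in BN1190. The share among all genes with so few reads is not given here, so nothing is read from these.

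**Figure D3:**
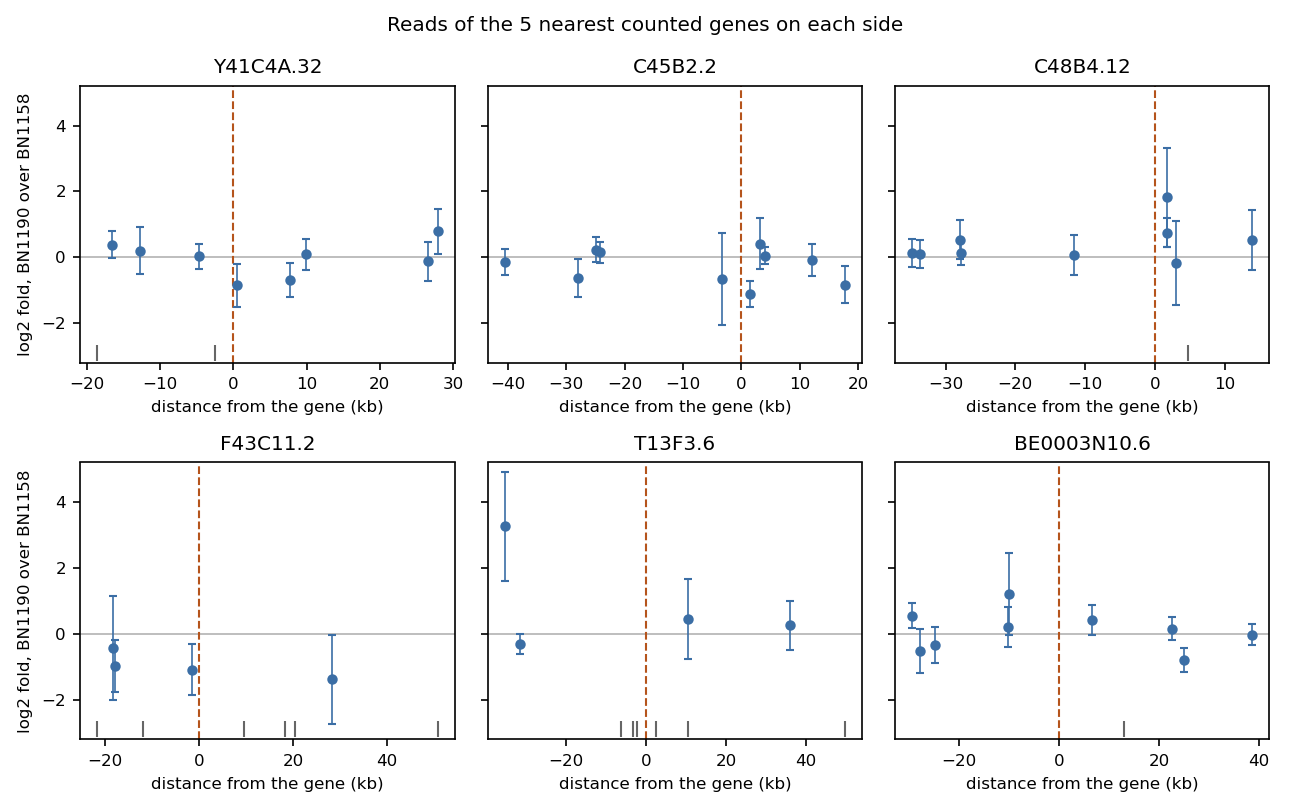
Log2 fold of reads, BN1190 over BN1158 (y axis), for the 5 nearest counted genes on each side of each of the 6 genes against distance in kb (x axis, its own range in each panel). Points with their SE are the 44 genes tested, ticks at the bottom are neighbours with too few reads, and the dashed line is the gene itself. The points lie on both sides of 0 and none passed the test.

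Beside Y41C4A.32, on its left and 628 bases away on the same strand, Y41C4A.11 had 70, 7 and 19 reads in BN1190 libraries, against 0, 1, 0 and 0 reads in BN1158 libraries, too few to be tested. On the right of Y41C4A.32, 428 bases away on the other strand, Y41C4A.12 had 8.84 ± 4.83 RPM in BN1190 (SD, n = 3) and 14.8 ± 12.8 RPM in BN1158 (SD, n = 4), a log2 fold of -0.86 (SE 0.66, edgeR adjusted p = 1.0). Y41C4A.12 thus lay below 0 beside a gene that was higher in BN1190, with strains that overlapped.

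C48B4.12 has acox-1.5, an acyl-CoA oxidase gene, on its left and F58A4.1 on its right. The log2 fold was 0.07 (SE 0.61) in acox-1.5 and 1.82 (SE 1.50) in F58A4.1, both with an edgeR adjusted p of 1.0. F58A4.1 lies 151 bases from C48B4.12 on the same strand and had 40, 62 and 16 reads in BN1190 libraries, against 56, 0, 5 and 0 reads in BN1158 libraries. Unlike C48B4.12, it was read in the first BN1158 library. A further neighbour of C48B4.12, the C-type lectin gene clec-161, had 16, 58 and 37 reads in BN1190 libraries and 0 reads in each BN1158 library, and is named here after its values were seen.

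F43C11.2 lies 402 bases from F43C11.3 on the same strand, and that gene gave a log2 fold of -1.09 (SE 0.79, edgeR adjusted p = 1.0). F43C11.3 averaged 3.95 ± 2.54 RPM in BN1190 (SD, n = 3) and 7.95 ± 6.34 RPM in BN1158 (SD, n = 4). All 4 tested neighbours of F43C11.2 had a log2 fold below 0 (median -1.03), while 8 of the 9 tested neighbours of C48B4.12 were above 0 (median 0.14), and none of either passed the test. The nearest counted gene on the right of F43C11.2, F43C11.12, had a mean of 0.701 ± 0.663 RPM in BN1190 (SD, n = 3) and 0.0240 ± 0.0481 RPM in BN1158 (SD, n = 4) and was not tested.

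T13F3.6 lies between the F-box gene fbxa-2 and pacl-1, and both had too few reads for a test. The entry of fbxa-2 shares sequence with that of another gene, so its count is uncertain. It had 8, 3 and 3 reads in BN1190 libraries, against 24, 1, 15 and 12 reads in BN1158 libraries, which in RPM did not overlap. The gene pacl-1 had 4, 7 and 4 reads in BN1190 libraries and 0, 5, 0 and 1 reads in BN1158 libraries. BE0003N10.6 lies between fbxo-11.2, an F-box gene, and uaf-1, which encodes the large subunit of the splicing factor U2AF. The log2 fold was 1.21 (SE 1.25) in fbxo-11.2 and 0.40 (SE 0.46) in uaf-1, both with an edgeR adjusted p of 1.0 and both above 0 beside a gene that was lower in BN1190.

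C45B2.2 has lgc-58, a ligand-gated ion channel gene, on its left, with a log2 fold of -0.67 (SE 1.39, edgeR adjusted p = 1.0). On its right, 934 bases away on the same strand, lies C45B2.1, at 6086124 to 6086567, which is named spig-20 in RefSeq. C45B2.1 had 31.01, 55.5 and 40.98 RPM in BN1190 libraries, against 70.9, 117, 101 and 59.5 RPM in BN1158 libraries. The strains did not overlap and stood the other way round from C45B2.2. The means of C45B2.1 were 42.5 ± 12.3 RPM in BN1190 (SD, n = 3) and 87.0 ± 26.6 RPM in BN1158 (SD, n = 4), a log2 fold of -1.12 (SE 0.39) that did not pass after adjustment (edgeR unadjusted p = 0.0144, adjusted p = 1.0, lower in 3 of 3 BN1190 libraries).

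The ratio of C45B2.2 to C45B2.1 reads was 5.996, 2.60 and 3.25 in BN1190 libraries, against 0.899, 0.450, 0.558 and 1.39 in BN1158 libraries. The sum of both genes was 217, 200 and 174 RPM in BN1190 libraries, against 135, 170, 157 and 142 RPM in BN1158 libraries. C45B2.2 was chosen as higher in each BN1190 library and C45B2.1 was lower in each, so a ratio without overlap follows from these values. The labelled share of C45B2.1 was 1.15, 2.22 and 1.41% in BN1190 libraries, against 3.20, 0.338, 0.349 and 0.922% in BN1158 libraries, so the strains overlapped through the first BN1158 library. Its log2 odds ratio was 0.81 (SE 1.02, edgeR adjusted p = 1.0) and ran from 0.37 without the third BN1158 library to 1.57 without the first. In that first library only 4 converted Ts were counted inside the entry, against 118 labelled reads. Whether the 3′ ends of C45B2.2 and C45B2.1 share sequence was not analysed here, and the deposited column of multimapping counts is 0 throughout, so the division of reads between them is uncertain to that extent.

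**Figure D4:**
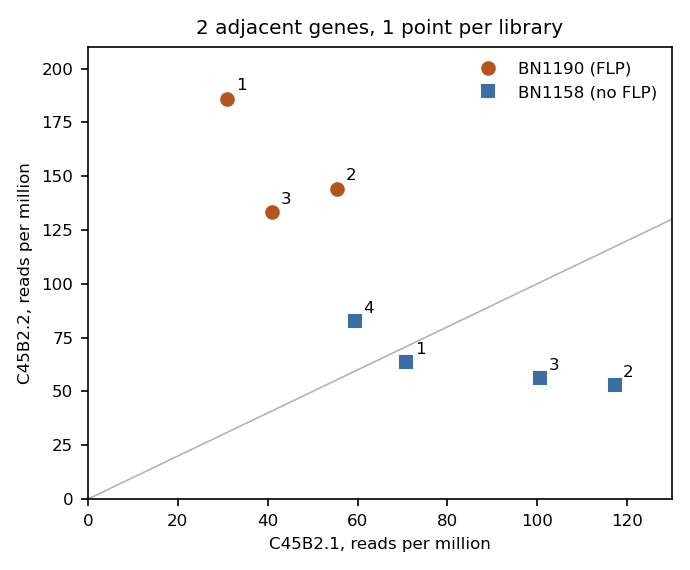
RPM of C45B2.1 (x axis) and C45B2.2 (y axis) in the 7 libraries, numbered by replicate, with BN1190 as circles, BN1158 as squares and a grey line where both genes have the same level. The 3 BN1190 libraries, at 133 to 186 RPM of C45B2.2, lie above the 4 BN1158 libraries and to their left.

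The 6 genes do not share a place in the genome. Y41C4A.32, C48B4.12 and BE0003N10.6 are on chromosome III, where 4.58% of tested genes did not overlap between the strains, F43C11.2 is on II (4.26%), T13F3.6 on V (5.30%) and C45B2.2 on X (5.81%). Within 100 kb of the 6 genes, 5 of 135 tested genes (3.70%) did not overlap and 0 were called by edgeR, with 3 at an unadjusted p under 0.05, against 284 of 12465 genes (2.28%).

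For each of the 6, the 2 other genes most like it over the 7 libraries were found by Pearson's r of log2(RPM + 1), as a description in which all points share the 2 strains. The scarce pair were most alike among the 6, with r = 0.99 between C48B4.12 and F43C11.2. C48B4.12 was closest to srlf-18 (r = 0.99) and C35E7.7 (r = 0.98), and F43C11.2 to T02H6.9 (r = 0.99) and again C35E7.7 (r = 0.99). The gene srlf-18 had 2.14 ± 1.86 RPM in BN1190 (SD, n = 3) and, like C48B4.12, had 0 reads in all 4 BN1158 libraries. Among the BN1190 libraries the first had the lowest level of srlf-18, at 0.500 RPM, and of T02H6.9, at 0.517 RPM, as it had of C48B4.12 and F43C11.2. These genes were picked for likeness over the same libraries, so such shared features follow largely from the choice.

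Y41C4A.32 was closest to H35B03.1 (r = 0.96) and pcp-2 (r = 0.95), and C45B2.2 to lips-9 (r = 0.99) and zig-7 (r = 0.98). The span of these was smaller than that of their partners, for example 65.6 ± 3.50 RPM in BN1190 (SD, n = 3) and 43.2 ± 5.26 RPM in BN1158 (SD, n = 4) for lips-9. T13F3.6 was closest to Y39F10C.3 (r = 0.97) and D1014.6 (r = 0.97). BE0003N10.6 was closest to puf-5 (r = 0.98), a gene for an RNA-binding protein of oocytes, and dct-7 (r = 0.98). The gene puf-5 had 83.0 ± 13.3 RPM in BN1190 (SD, n = 3) and 184 ± 31.2 RPM in BN1158 (SD, n = 4). The lack of overlap in puf-5 follows largely from its choice by likeness.

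Markers of tissue and stage were read beside these genes. The summed RPM of 8 hypodermal marker genes was 3584 to 4490 in BN1190 and 4206 to 4680 in BN1158. Most of this sum was the cuticle collagen col-12, with 1973 to 2902 RPM in BN1190 and 2754 to 3710 RPM in BN1158, while 6 of the 8 genes had a log2 fold above 0 (median 0.47). The 4 adult-stage genes summed to 1260 to 1848 RPM in BN1190 and 1617 to 3347 RPM in BN1158, and all 4 had a log2 fold below 0 (median -0.79). Markers of germline came to 1037 to 1223 RPM in BN1190 and 919 to 1679 RPM in BN1158, and the lists for muscle, intestine, neurons, sperm and the moult overlapped between the strains too. The log2 fold was above 0 in 4 of 5 moult and L4 genes (median 0.49), 0 of 4 germline genes (median -0.30) and 1 of 4 sperm genes (median -0.31). It was above 0 in 3 of 4 genes each for muscle, intestine and neurons (medians 0.21, 0.07 and 0.32). In the moult sum, lin-41 alone had 147 RPM in the third BN1158 library. No marker was at 0 in all libraries and 0 were called by edgeR, with 4 of 37 at an unadjusted p under 0.05 (2 adult, 1 germline and 1 moult gene), against 2.28% of all genes tested. The part of stage or tissue in the levels of the 6 genes was not tested.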

How the data were processed

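Whole L4 larvae gave 7 libraries, 3 of BN1190 and 4 of BN1158, grouped and numbered by the sample titles. Per the labels' protocols, RNA was alkylated with iodoacetamide and made into libraries with a 3′ mRNA kit. The authors made the deposited counts with slamdunk 0.4.3, per the file headers: reads, reads with T>C, covered Ts and converted Ts for each of 47039 3′ UTR entries. The deposited score, a CPM, served only to back-calculate mapped reads. The authors' deposited table gives an adjusted p-value for 198 genes, used only to look the genes up, and 21 of its per-library columns were not used. The submitters' processing notes name ce10 and DESeq2, while the file headers name a WBcel235 annotation, whose coordinates are printed here.

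Entries were joined to genes by transcript name (42202) or sequence name (4816). Another 21 entries matched no gene, held 0.00444% of reads and entered neither library sizes nor tests. Of overlapping entries of a gene the most-read was kept, and the rest were summed. Reads were compared with edgeR 4.0.16 in R 4.3.3 (quasi-likelihood test, TMM, Benjamini-Hochberg adjustment over 12465 genes with a mean of at least 20 reads, two-sided), and labelled reads against unlabelled reads with the same tool and a term per library (9822 genes with 10 or more labelled reads in all). DESeq2 1.42.0 and limma 3.58.1 served as alternatives. The SE of an edgeR value was taken as its absolute size over the square root of its F statistic. The main edgeR fits of reads and of labelled reads were tested on simulated data, and the alternatives were not. Alternatives were other library sizes, filters, pseudocounts, entries, tools, a replicate block, the libraries with a flow cell prefix, and leaving out each library. Intervals are 95% Wilson intervals and a count of 0 is read as up to 3 counts, both for counting error only, since reads carry no molecular identifiers.

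The 6 genes, the marker lists and the tests were chosen with earlier results of these data known. Beside the 6 genes the text names the nearest counted gene on each side, neighbours past an adjusted p of 0.05, and the 2 most similar genes per gene. Exceptions are named with values: kbp-4 and clec-161, chosen after their values were seen, and the genes just outside the choice.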

Additional observations from a re-analysis of the deposited data

Results flagged for a closer look

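Each of these values stood apart from the other 3 of the 4 BN1158 libraries by a Dixon test on 22 groups of values, of which 5 were marked. Chance marks about 1 group in 20 where values vary continuously. Any read beside 3 counts of 0 is always marked, as in Y41C4A.11 and F43C11.12 below. The 5 marked groups therefore cannot be set against that rate. The labelled share of Y41C4A.32 was 9.30% in the second BN1158 library, from 86 reads, against 0 to 1.20% in the other three. In the same library 4.58% of all gene reads were labelled, against 2.63 to 2.79% in the others, and it had the fewest gene reads, 5041283. The neighbour of T13F3.6, pacl-1, had 0.992 RPM there, and the neighbour of Y41C4A.32, Y41C4A.11, had 0.198 RPM there. The neighbour of F43C11.2, F43C11.12, had 0.0962 RPM in the first BN1158 library and 0 in the others. The levels of pacl-1, Y41C4A.11 and F43C11.12 in these libraries rest on 5 reads or fewer.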

How the results depend on the processing

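Of 72 recomputed log2 differences of the 6 genes, 68 moved by less than 1 SD between replicates. Their sign is fixed by the choice of the genes. The other 4 were BE0003N10.6 at -4.19, C48B4.12 at 4.70 and F43C11.2 at 4.27 with a pseudocount of 0.1, and BE0003N10.6 at -2.23 per mapped reads. Among all genes, edgeR called 0 higher and 2 lower in BN1190. DESeq2 called 9 higher and 15 lower, all genes with at least 1 read gave 1 higher, and the libraries with a flow cell gave 0 lower. Leaving out each library gave 0 to 1 lower for reads and 0 to 20 higher for the labelled share, the 20 without the second BN1158 library and 1 without the fourth. The replicate numbers were not used as pairs in the main fits. The r of same-numbered deviations from the strain means was 0.51, 0.18 and -0.08 for replicates 1, 2 and 3. The first replicates, which both lack a flow cell prefix and are both the deepest of their strain, thus deviated partly alike. Libraries of different numbers were not compared in this way. The replicate block gave 0 lower. The log2 odds ratio of labelled reads changed sign in 3 of the 4 genes tested, and the cause was not tested. In T13F3.6 it was -1.03 with the flow-cell libraries and -0.54 to 1.52 over the libraries left out, the lowest without the first BN1190 library. In BE0003N10.6, with 13 labelled reads, it was 1.98 on converted Ts, 1.22 with limma, 0.0094 with the replicate block and -1.18 to 0.46 over the libraries left out, the highest without the second BN1158 library. In C45B2.2 it was -0.17 to 0.68, at -0.03 without the fourth BN1158 library and -0.17 without the first BN1190 library. None of these passed. The neighbours gave 0 calls under 12 alternatives, in which 40 to 60 of them had enough reads, and so did the 135 genes within 100 kb. Leaving out libraries for the bound of C48B4.12 and the labelled share of C45B2.1 was added after seeing the data. The shallowest library, with 5041283 gene reads, limits what can be said of the scarce genes.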
